A study of Rattus norvegicus with 16 samples.

Results

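RNA was sequenced from brain tissue of 8 female rats, and the comparison described here is Pink1-/- against wild type within those females. They make up 8 of the 16 libraries in the series and were chosen by the sex and genotype in their labels. The wild-type animals carry the numbers 64, 111, 504 and 980, and the Pink1-/- animals carry 548, 602, 736 and 983. All were 8 months old, no treatment is given, and the libraries are set against males of the same age and genotypes only where stated. The tissue label says brain, while the nucleus ambiguus appears in the series title. The labels give neither the strain nor the design of the Pink1 allele, and because each animal has a number of its own the libraries were taken as separate animals.

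PINK1 is a kinase that accumulates on mitochondria that have lost their membrane potential. There it phosphorylates ubiquitin and activates the ubiquitin ligase Parkin, which marks the organelle for removal by autophagy (mitophagy). Loss-of-function mutations of PINK1 cause a recessive, early-onset form of Parkinson's disease in people, and Pink1-/- rats are used as a model of early motor and vocal deficits. The nucleus ambiguus is a column of cholinergic motor neurons in the medulla that drives the muscles of the larynx, pharynx and soft palate.

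The 8 libraries held 13876000 to 26570000 estimated counts, and 15265 of 32754 identifiers had enough counts to be tested. Their makeup differed in ways the genotype did not follow. The summed level of 11 motor neuron markers ran from 82.5 CPM (counts relative to library size, scaled by TMM, the trimmed mean of M-values) in wild-type 111 to 649 CPM in wild-type 504. Chat, which makes acetylcholine, was at 6.24 CPM and 76.9 CPM in those libraries, and Mnx1, a spinal motor neuron factor, was at 0 in all 8. The 5 catecholamine markers summed to 167 CPM in wild-type 504 and to 17.0 to 48.4 CPM elsewhere. Blood markers summed to 373 CPM in Pink1-/- 983 and to 61.7 to 88.3 CPM elsewhere. In bulk tissue, fewer cells of a type and less RNA per cell cannot be told apart.

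The wild-type libraries also fell apart from each other at genes that separate the genotypes in males. In males, 75 genes other than Pink1 were called with a change of over 2-fold and could be tested in females. For each, a female library was placed on the side of the male Pink1-/- group or of the male wild-type group, according to the middle of the log2 range of the 8 females. Wild-type 64 lay on the Pink1-/- side at 18.7% of these genes and wild-type 111 at 17.3%. Wild-type 504 did so at 58.7% and wild-type 980 at 61.3%, below the 68.0% to 81.3% of the Pink1-/- females. Over all 314 male calls tested in females, wild-type 64 and 111 lay at 28.3% and 23.9%. There wild-type 504 lay at 50%, below every Pink1-/- female (57.6% to 73.6%), and wild-type 980 at 76.1%, above every one, so these libraries were not alike. The labels give no breeding, litter or source for any animal, and whether the wild-type animals differ in these cannot be told from the data used here. The middle of the range was set by the female libraries themselves, so these shares describe the libraries and were not tested. The counts of genes called between the female genotypes are therefore also given without wild-type 64 and 111, and without wild-type 504 and 980. These alternatives were chosen after seeing the data. The later test of whether the genotype difference depends on sex (the interaction) was not refitted without these pairs.

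**Figure D1:**
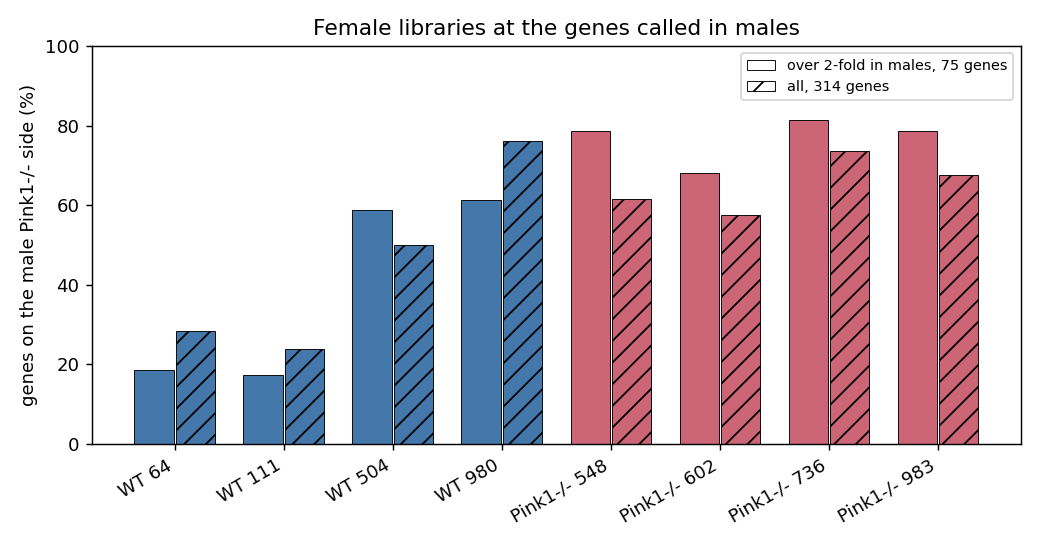
Bars show, for each female library, the percentage of male-called genes at which its level lay on the side of the male Pink1-/- group, for changes over 2-fold in males (plain) and for all male calls (hatched). Among the 75 genes with changes over 2-fold, wild-type 64 and 111 lay at 18.7% and 17.3%, and wild-type 504 and 980 at 58.7% and 61.3%; over all 314 genes the latter lay at 50% and 76.1%.

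Several single genes were arranged in this way. A locus named Rpl30 in the deposited count tables, after a component of the ribosome's large subunit, carries the placeholder LOC100362027 in the authors' deposited female comparison table, so its identity is uncertain. It stood at 1.47 CPM in wild-type 64 and 1.02 CPM in wild-type 111. It stood at 26.1 CPM in wild-type 504, 21.6 CPM in wild-type 980 and 21.0 to 30.8 CPM in the Pink1-/- females. In males the locus ranged from 3.42 to 4.95 CPM in wild type and from 14.0 to 24.3 CPM in Pink1-/-. Ribosomal protein genes have near-identical copies elsewhere in the genome, and counts divided among copies are uncertain.

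Mocos, a molybdenum cofactor sulfurase, was at 0.218 and 0.484 CPM in wild-type 64 and 111. It was at 4.24 and 3.35 CPM in wild-type 504 and 980, and at 2.55 to 3.81 CPM in the Pink1-/- females. RT1-N2, a class I major histocompatibility (MHC) gene, was at 0 in wild-type 64 and 111 but at 3.84 and 3.08 CPM in the other pair and at 3.20 to 6.83 CPM in the Pink1-/- females. RT1 genes are also a multigene family, so their split between copies is uncertain. Polq, a DNA polymerase of end joining, ran the other way, with 8.59 and 9.68 CPM in wild-type 64 and 111 and 2.53 and 0.750 CPM in wild-type 504 and 980. The Pink1-/- females held 2.42 to 2.96 CPM of Polq. Eml1, a microtubule-binding protein, was at 33.6 and 27.0 CPM in wild-type 64 and 111, at 63.1 and 57.8 CPM in wild-type 504 and 980, and at 54.3 to 77.8 CPM in Pink1-/-. Rpl30, Mocos, RT1-N2, Polq and Eml1 were not called in females, and in each the wild-type group spans both levels.

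The arrangement was not shared by all male calls. Jhy stood at 7.07 and 6.02 CPM in wild-type 64 and 111 and at 12.3 and 14.6 CPM in wild-type 504 and 980. The Pink1-/- females were spread over both levels of Jhy, with 15.6, 12.4, 6.21 and 8.62 CPM in 548, 602, 736 and 983. Pbld1 was at 16.8 and 14.9 CPM in wild-type 504 and 980 and at 12.6 CPM in Pink1-/- 548, but at 4.41 to 4.94 CPM in the other 5 libraries. Slc39a12, a zinc transporter, kept the groups apart, with 32.9, 25.3, 23.0 and 16.7 CPM in wild-type 64, 111, 504 and 980 and 10.96 to 13.5 CPM in Pink1-/-. Its fitted female difference of -0.95 log2 (standard error, SE, 0.177) had an adjusted p of 0.177 in edgeR, against -2.20 in males.

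With all 8 libraries, 9 genes were called between the female genotypes at a Benjamini-Hochberg adjusted p under 0.05 in edgeR's quasi-likelihood test, which is 0.059% of the genes tested. Pink1, Slc35c2, Akr1b8, Srd5a1 and Golgb1 were lower in Pink1-/- (0.0328% of genes tested), and Zfp40, Cnksr3 and 2 unnamed loci were higher (0.0262%). The groups did not overlap at any of the 9, against 3.38% of all genes tested. The 9 were picked by p in these same libraries, so this describes them and is no separate support for the calls. Of the 9, 6 changed by more than 2-fold. Without wild-type 64 and 111 the test called 7 genes higher and 10 lower, and 7 of the 9 were among them, with Cnksr3 and Golgb1 lost. Without wild-type 504 and 980 it called 40 higher and 25 lower, with all 9 among them. These pairs were formed from the libraries' levels at the male calls, so the counts without a pair are a description of these libraries.

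Pink1 checks the genotype labels. It stood at 130, 115, 137 and 130 CPM in wild-type 64, 111, 504 and 980. It stood at 11.6, 4.68, 4.75 and 7.23 CPM in Pink1-/- 548, 602, 736 and 983. Every Pink1-/- library lay far below every wild-type one, and the residual level was highest in 548. The fitted fall was 17.9-fold, or -4.16 log2 (95% interval -4.70 to -3.62, adjusted p = 5.65e-05 in edgeR). The residual estimated counts were 267, 68, 101 and 161 in those libraries. No neighbour of Pink1 was called: Ddost and Cda, the nearest tested genes on either side in the RefSeq order, had log2 differences of -0.09 (SE 0.0836) and 0.06 (SE 0.344).

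**Figure D2:**
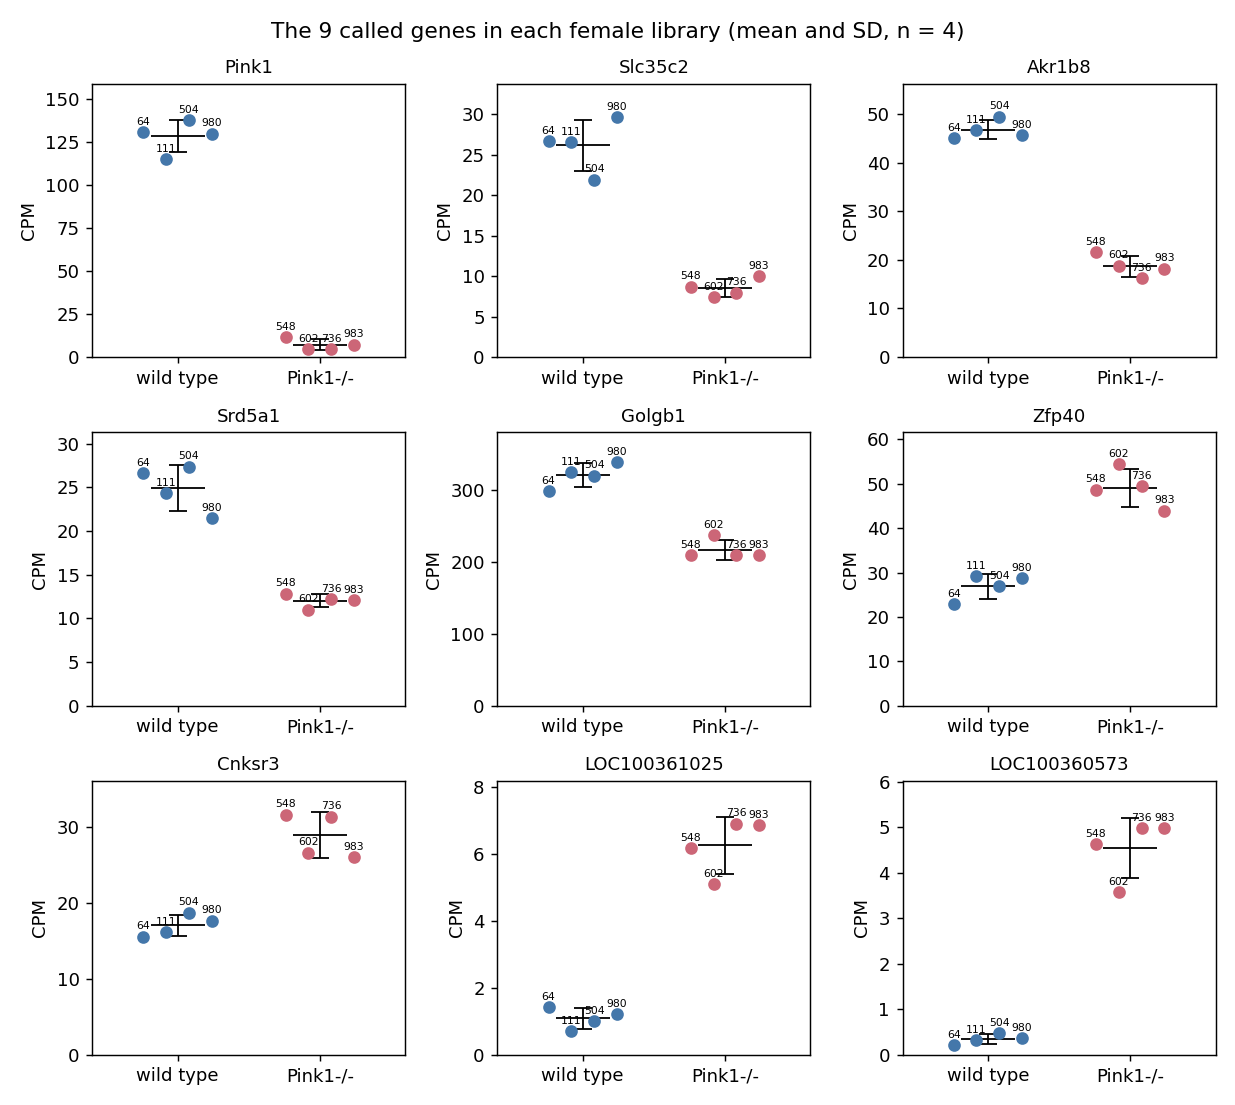
Each panel plots the level of a called gene in CPM, by genotype, with every library marked by its animal number and with the group mean and SD (n = 4). At all 9 genes the wild-type and Pink1-/- libraries did not overlap; Golgb1 shows the smallest fold change and Pink1 the largest.

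Slc35c2 and Golgb1, both lower, encode proteins of the Golgi. Slc35c2 encodes a putative sugar-nucleotide transporter that, in cultured mammalian cells, has been tied to the fucosylation of Notch. It was at 26.6, 26.5, 21.9 and 29.6 CPM in wild-type 64, 111, 504 and 980. It was at 8.70, 7.44, 7.95 and 10.02 CPM in Pink1-/- 548, 602, 736 and 983. The lowest wild-type library lay well above the highest Pink1-/- library. The fall was 3.06-fold, -1.61 log2 (95% interval -1.89 to -1.34, adjusted p = 0.000218 in edgeR). It was called under all 20 alternatives, leaving out libraries included.

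Golgb1 encodes giantin, a large coiled-coil tether of Golgi membranes. It stood at 299, 325, 321 and 339 CPM in wild-type 64, 111, 504 and 980. It stood at 210, 237, 210 and 210 CPM in Pink1-/- 548, 602, 736 and 983. The groups did not overlap, and the Pink1-/- library 602 lay nearest to wild type. The fall was 1.48-fold, -0.57 log2 (95% interval -0.72 to -0.41, adjusted p = 0.0127 in edgeR). It lost its call when any of wild-type 111 or Pink1-/- 548, 736 or 983 was left out, with a highest adjusted p of 0.0927, and under scaling by library totals (0.113). Of 27 golgins and Golgi tethers, Golgb1 alone was called, and their median log2 difference was 0.01, near the 0.00 of all genes tested. Of 37 tested genes for nucleotide-sugar transport and O-fucose glycosylation, Slc35c2 alone was called, with a list median of 0.01.

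Akr1b8 and Srd5a1, also lower, encode enzymes that reduce carbonyl compounds and steroids. Akr1b8 is a cytosolic aldo-keto reductase that reduces aldehydes with NADPH. It stood at 45.0, 46.7, 49.5 and 45.7 CPM in wild-type 64, 111, 504 and 980. It stood at 21.5, 18.8, 16.2 and 18.2 CPM in Pink1-/- 548, 602, 736 and 983. Both groups were tight and far apart. The fall was 2.50-fold, -1.32 log2 (95% interval -1.53 to -1.11, adjusted p = 0.000133 in edgeR).

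In the RefSeq order of the rat assembly GRCr8, Akr1b1 and Akr1b7 are the tested genes on either side of Akr1b8 on chromosome 4. Akr1b1, the aldose reductase that turns glucose into sorbitol, was at 43.4, 33.0, 52.1 and 34.1 CPM in wild-type 64, 111, 504 and 980. It was at 28.6, 21.0, 25.6 and 25.9 CPM in Pink1-/- 548, 602, 736 and 983, and the groups did not overlap. Its log2 difference of -0.68 (SE 0.151) had an adjusted p of 0.313 in edgeR. Akr1b7 was close to the lower limit of testing, at 0.961 to 1.18 CPM in wild type and 0.188 to 0.413 CPM in Pink1-/-. Its log2 difference of -1.74 (SE 0.313) had an adjusted p of 0.169. These genes have similar sequences, and the estimated counts divide shared reads among them. The next tested genes outward, Slc35b4 and Bpgm, had log2 differences of 0.00 (SE 0.0809) and -0.14 (SE 0.0873). Of the 14 aldo-keto reductases tested, 1 fell and 0 rose, 10 had negative and 4 positive differences, and the list median was -0.14.

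Srd5a1 encodes steroid 5-alpha-reductase 1, which reduces testosterone to dihydrotestosterone and progesterone to the precursor of the neurosteroid allopregnanolone. It stood at 26.6, 24.3, 27.4 and 21.5 CPM in wild-type 64, 111, 504 and 980. It stood at 12.8, 11.02, 12.2 and 12.1 CPM in Pink1-/- 548, 602, 736 and 983. The Pink1-/- libraries were close together and all below the lowest wild-type library. The fall was 2.07-fold, -1.05 log2 (95% interval -1.27 to -0.83, adjusted p = 0.00139 in edgeR). Of the 19 tested genes of neurosteroid synthesis it alone was called. Star, which carries cholesterol into mitochondria, was at 0.968 to 1.54 CPM in wild type and 1.41 to 3.03 CPM in Pink1-/-, with an adjusted p of 0.978.

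Among the 4 genes that were higher, Cnksr3 encodes a scaffold protein that aldosterone induces in mouse kidney cells, where it helps to regulate the epithelial sodium channel. It stood at 15.6, 16.2, 18.7 and 17.7 CPM in wild-type 64, 111, 504 and 980. It stood at 31.7, 26.6, 31.4 and 26.0 CPM in Pink1-/- 548, 602, 736 and 983. All Pink1-/- libraries lay above all wild-type libraries. The rise was 1.697-fold, 0.76 log2 (95% interval 0.54 to 0.99, adjusted p = 0.0196 in edgeR). It lost its call when any of wild-type 64 or 111 or Pink1-/- 548 or 736 was left out, with a highest adjusted p of 0.101, and without both wild-type 64 and 111 (0.194). Of 24 tested steroid receptors and their targets, Cnksr3 alone was called.

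Zfp40 encodes a zinc finger protein. It stood at 22.9, 29.1, 26.9 and 28.7 CPM in wild-type 64, 111, 504 and 980. It stood at 48.7, 54.4, 49.5 and 44.0 CPM in Pink1-/- 548, 602, 736 and 983. The groups did not overlap, and the rise was 1.82-fold, 0.87 log2 (95% interval 0.65 to 1.08, adjusted p = 0.00631 in edgeR). Zfp53, a zinc finger gene 3 tested genes away in the RefSeq order, had a log2 difference of 0.17 (SE 0.145, adjusted p = 0.993).

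The other loci that rose carry placeholder names and resemble genes with several copies, so their counts are uncertain. LOC100361025, described by the authors' deposited table as like protein arginine methyltransferase 1, was at 1.41, 0.699, 1.005 and 1.22 CPM in wild-type 64, 111, 504 and 980. It was at 6.19, 5.09, 6.91 and 6.87 CPM in Pink1-/- 548, 602, 736 and 983, a 5.75-fold rise (2.52 log2, 95% interval 2.03 to 3.02, adjusted p = 0.000771 in edgeR). LOC100360573, described there as like ribosomal protein S12, was at 0.218, 0.323, 0.480 and 0.355 CPM in wild type, from 4, 6, 11 and 9 estimated counts. It was at 4.63, 3.58, 4.99 and 4.99 CPM in Pink1-/-, from 107, 52, 106 and 111 counts, a 12.9-fold rise (3.68 log2, 95% interval 3.11 to 4.26, adjusted p = 0.000133 in edgeR). Both loci were low in all 4 wild-type libraries, unlike Rpl30, Mocos and RT1-N2.

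The promoters of the neighbours Akr1b8 and Akr1b7, of Slc35c2, the larger of the Golgi falls, and of Cnksr3, as 1 named gene that rose, are shown. The 250 bases before their RefSeq start sites are given 5′ to 3′ on the gene's strand, from the GRCr8 assembly. Capitals mark matches on either strand to the core shared by the E-box and the lysosomal CLEAR element (CACGTG), the core of the antioxidant response element (TGACNNNGC), the CCAAT box, the TATA box (TATAAA) or the GC box (GGGCGG). The first of these motifs, CACGTG, reads the same on both strands.
Akr1b8, chr4:63964171-63964420, plus strand: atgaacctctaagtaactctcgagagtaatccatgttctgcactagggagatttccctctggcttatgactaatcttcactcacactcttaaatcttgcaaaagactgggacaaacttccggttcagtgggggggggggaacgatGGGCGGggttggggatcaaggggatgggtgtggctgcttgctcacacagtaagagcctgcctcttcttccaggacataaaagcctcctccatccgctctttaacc
Akr1b7, chr4:64043720-64043969, plus strand: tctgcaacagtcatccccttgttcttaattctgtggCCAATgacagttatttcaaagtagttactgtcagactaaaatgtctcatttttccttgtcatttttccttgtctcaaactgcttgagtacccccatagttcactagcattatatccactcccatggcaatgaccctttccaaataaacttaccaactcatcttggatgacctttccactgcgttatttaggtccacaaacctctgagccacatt
Slc35c2, chr3:174442783-174443032, minus strand: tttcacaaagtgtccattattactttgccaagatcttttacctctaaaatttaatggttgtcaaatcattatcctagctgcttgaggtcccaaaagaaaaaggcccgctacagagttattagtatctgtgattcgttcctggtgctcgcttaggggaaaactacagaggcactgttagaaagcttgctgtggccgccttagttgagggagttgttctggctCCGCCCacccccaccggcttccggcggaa
Cnksr3, chr1:45996922-45997171, minus strand: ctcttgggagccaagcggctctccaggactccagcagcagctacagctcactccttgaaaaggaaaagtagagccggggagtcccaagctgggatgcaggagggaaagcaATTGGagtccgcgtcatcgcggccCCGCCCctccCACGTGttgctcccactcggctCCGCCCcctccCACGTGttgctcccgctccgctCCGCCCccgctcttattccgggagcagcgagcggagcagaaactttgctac
Akr1b8 held 1 GGGCGG, 105 bases before its start, and Akr1b7 held 1 CCAAT, so the neighbours shared none of the motifs searched. Slc35c2 held 1 match to GGGCGG on the reverse strand, 29 bases before its start. Cnksr3 held CACGTG at 106 and 73 bases before its start, along with 3 reverse-strand matches to GGGCGG and 1 to CCAAT. The promoters of Srd5a1, Golgb1 and Zfp40 were searched too and are not shown. They held only CCAAT or GC boxes, so Cnksr3 was the only promoter searched that held CACGTG. Over the same 250 bases of 33469 promoters, 5.59% held the E-box core, 10.1% the antioxidant response element core, 34% the CCAAT box, 12.9% the TATA box and 30.5% the GC box. A match describes letters only.

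The 13 tested protein-coding genes of the mitochondrial genome, which encode core subunits of respiratory complexes I, III, IV and V, had lower levels in Pink1-/- females, though none was called. Together they took 4.61%, 5.19%, 5.02% and 4.54% of the counts in wild-type 64, 111, 504 and 980. They took 3.42%, 3.64%, 4.04% and 4.33% in Pink1-/- 548, 602, 736 and 983. The groups did not overlap, and wild-type 980 and Pink1-/- 983 were the nearest pair (4.84% ± 0.316 against 3.86% ± 0.404, SD, n = 4, exact 2-sided permutation p = 0.0286, the smallest that 4 against 4 can give). With 1 wild-type library left out the p was 0.0571. The same test was run on many other library measures, without adjustment for their number. The summed levels of the mitophagy list (Pink1 included), the mitochondrial unfolded protein response list and the MHC list also reached 0.0286 in it, all lower in Pink1-/-.

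Mt-nd1, a core subunit of complex I, showed the largest difference of the 13. It was at 2515, 2810, 2821 and 2683 CPM in wild-type 64, 111, 504 and 980, and at 1075, 1668, 2186 and 2086 CPM in Pink1-/- 548, 602, 736 and 983. Its log2 difference of -0.63 (95% interval -1.03 to -0.22) had an adjusted p of 0.682 in edgeR. Mt-co1, the catalytic subunit of complex IV and the most abundant of the 13, differed least, at 19315 to 21486 CPM in wild type and 15357 to 18384 CPM in Pink1-/-. All 13 differences were negative, with a median of -0.50, and at 10 of the 13 the groups did not overlap, against 3.38% of all genes tested. An unadjusted p under 0.05 was reached by 12 of the 13, against 4.64% of all genes. Transcripts of the mitochondrial genome come from shared precursors and are not independent of one another. The AY172581 loci, counted apart from the 13 genes, are also mitochondrial. Their share of the counts overlapped between the genotypes, and Pink1-/- 736 held the highest. It was 9.34% ± 0.827 in wild type and 7.71% ± 4.27 in Pink1-/- (SD, n = 4, exact 2-sided permutation p = 0.629). The separation given above is thus that of the 13 genes and was not seen at these loci. Library 548 was lowest for Mt-nd1 and carried 1.77% of its counts in the AY172581 loci, against 8.08% to 11.9% in the other 7 libraries. The part of this in the result was not tested, and without 548 the median of the 13 was -0.33. The median was -0.53 without wild-type 64 and 111, and -0.45 without wild-type 504 and 980.

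**Figure D3:**
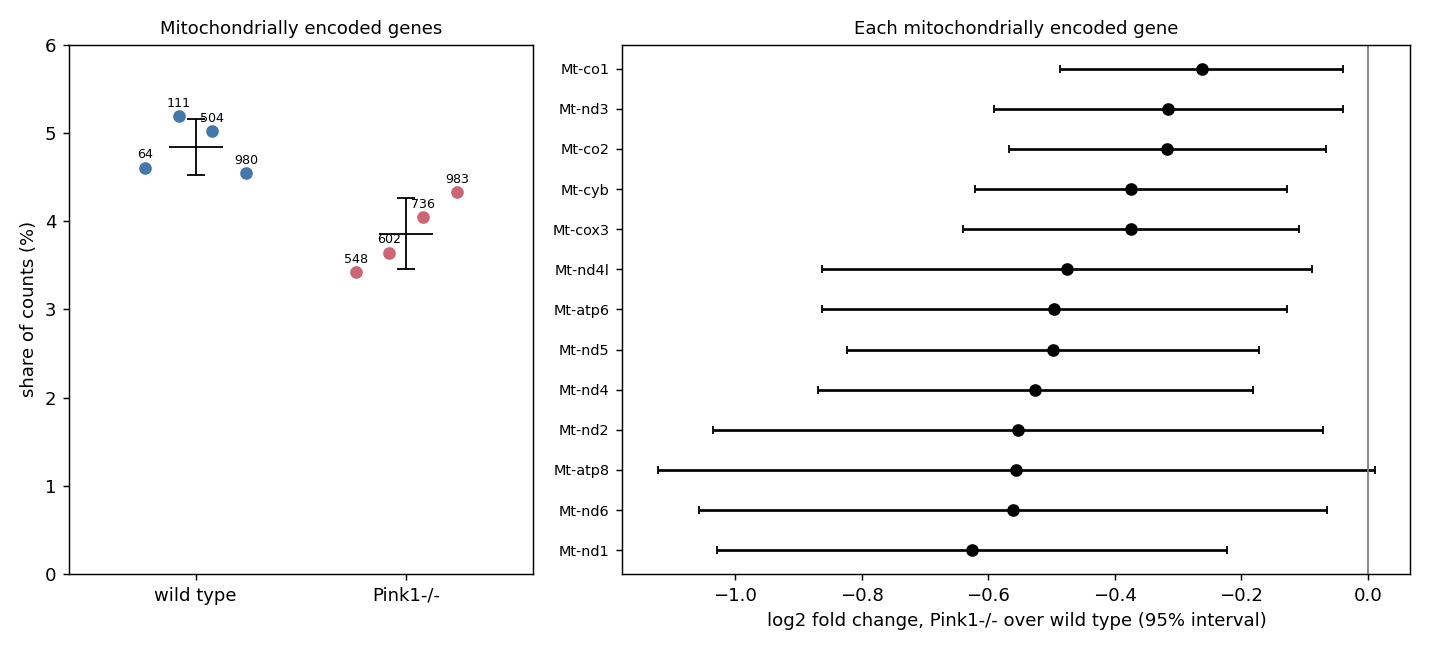
The left panel plots the percentage of counts in mitochondrially encoded genes for each female library, with the mean and SD of each genotype (n = 4), and the right panel plots the log2 fold change of each of the 13 genes with its 95% interval. Wild-type libraries lie between 4.54% and 5.19% and Pink1-/- libraries between 3.42% and 4.33%, and all 13 genes lie below 0. The AY172581 loci, also mitochondrial, are not included.

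Nuclear genes for respiratory complexes I to V differed much less. Of 33 tested nuclear subunits of complex I, 30 had negative differences, with a list median of -0.09 and 0 called. The smallest p belonged to Ndufa1, at 45.2 to 49.1 CPM in wild type and 37.2 to 45.2 CPM in Pink1-/- (-0.25 log2, adjusted p = 0.877 in edgeR). Of 37 tested nuclear subunits of complexes II to V, 35 were negative, with a median of -0.11 and 0 called. Scaling by library totals brought these medians to -0.04 and -0.06. That scaling raised other list medians too, such as that of the golgins from 0.01 to 0.05. The median of all genes under it is not given here, so these values cannot be read against 0. The shares of negative genes among the nuclear subunits can be read against 7587 negative differences among the 15265 genes tested.

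Apart from Pink1 itself, no gene of the mitophagy machinery was called. The list held 30 tested genes, 24 of them with negative differences, and its median was -0.04. It was 0.01 under scaling by library totals, which also raised the golgin median from 0.01 to 0.05. Of 17 tested genes of inherited parkinsonism other than Pink1, 0 were called. Vps13c, a lipid transfer protein, was at 368 to 476 CPM in wild type and 466 to 513 CPM in Pink1-/- (adjusted p = 0.993 in edgeR). In the autophagy list 0 of 33 genes were called. Nrbf2, a regulator of the complex that starts autophagosomes, came nearest, at 14.1, 14.7, 14.7 and 12.3 CPM in wild-type 64, 111, 504 and 980 and at 8.44, 7.44, 9.55 and 7.86 CPM in Pink1-/- 548, 602, 736 and 983. Its groups did not overlap, but its log2 difference of -0.74 (SE 0.114) had an adjusted p of 0.0603. It was called under 8 of 20 alternatives, among them DESeq2 (adjusted p = 0.000101).

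Among lysosomal genes 0 of 27 were called. Grn, the progranulin precursor, was at 32.7 to 39.4 CPM in wild type and 27.5 to 31.4 CPM in Pink1-/- (-0.33 log2, adjusted p = 0.523 in edgeR). The list of antioxidant genes and targets of NRF2, the factor that binds the antioxidant response element, held 31 tested genes, of which 0 were called. Gsta1, a glutathione transferase, was at 45.7, 45.6, 73.0 and 57.4 CPM in wild-type 64, 111, 504 and 980 and at 28.9 to 37.96 CPM in Pink1-/- (-0.77 log2, SE 0.153, adjusted p = 0.236). In the proteasome list 30 of 32 genes had negative differences, with a median of -0.07 and 0 called. That median was -0.02 without wild-type 504. It was also -0.02 under scaling by library totals, which raised other list medians too. The lists for the mitochondrial unfolded protein response (18 tested), for heat shock chaperones (19) and for the unfolded protein and integrated stress response (31) held 0 calls.

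Immune genes gave no call. MHC and antigen presentation genes held 14 tested members, 9 of them negative, with a median of -0.17. B2m, the light chain of class I MHC molecules, was at 134 to 172 CPM in wild type and 114 to 124 CPM in Pink1-/-, without overlap (-0.29 log2, SE 0.0859, adjusted p = 0.719 in edgeR). Stat2, which carries type I interferon signals, was at 57.4, 47.5, 52.0 and 45.5 CPM in wild-type 64, 111, 504 and 980 and at 35.6 to 40.6 CPM in Pink1-/- (-0.39 log2, SE 0.0893, adjusted p = 0.353). The interferon list as a whole had a median of -0.04 over 19 genes. Of 19 tested microglial and macrophage genes 0 were called, with a median of 0.00.

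**Figure D4:**
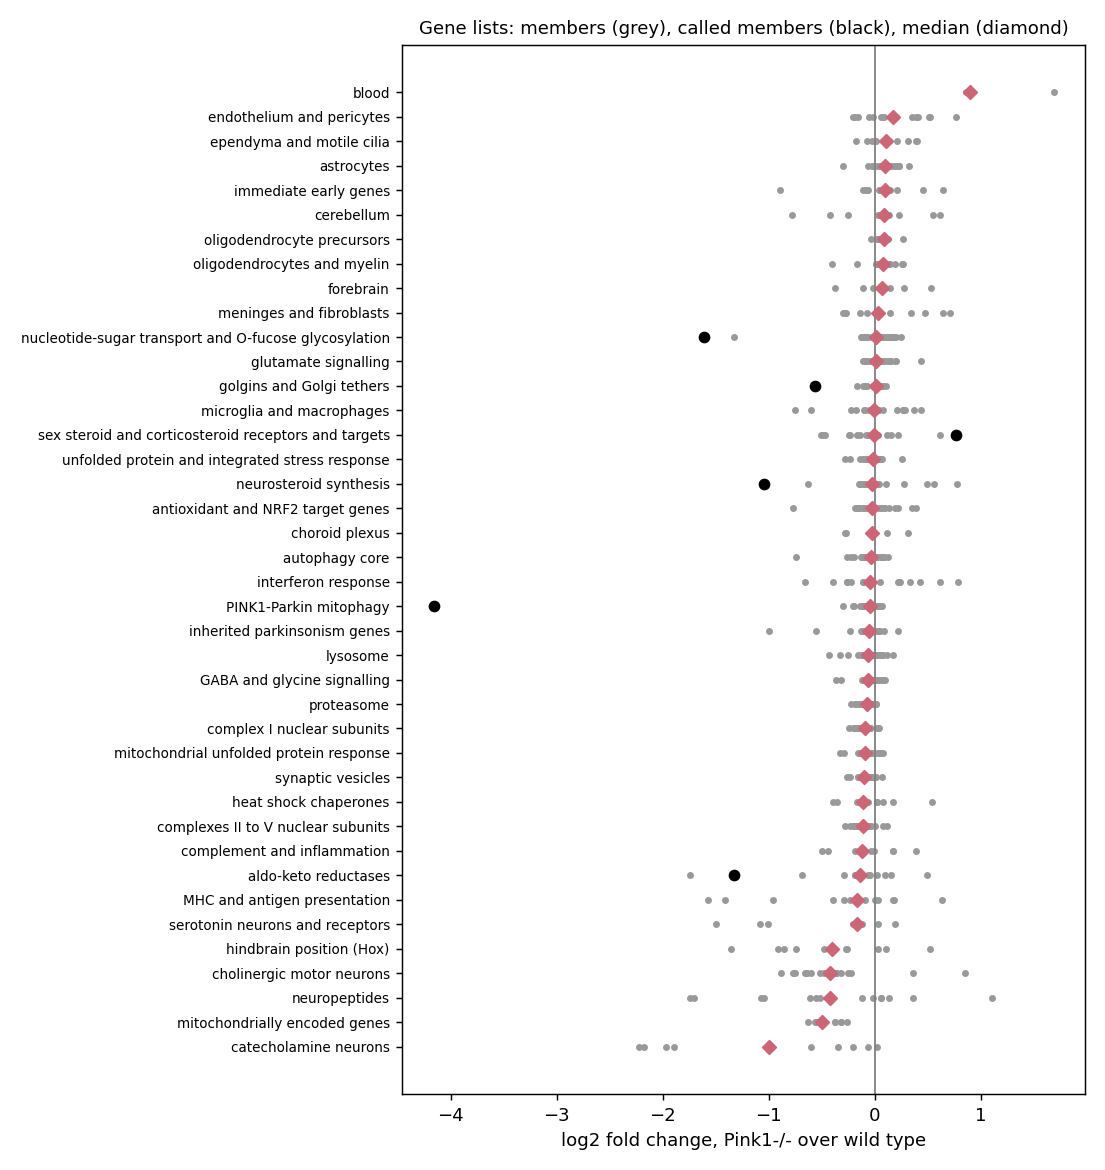
Each row is a gene list, with the log2 fold changes (Pink1-/- over wild type, females) of its tested members in grey, of called members in black and the list median as a diamond. The mitochondrially encoded genes have a median of -0.50 with all members below 0, and the catecholamine list has the lowest median at -0.99 and the blood list the highest at 0.90.

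Genes of neurons and glia were called in no list. The cholinergic motor neuron list had a median of -0.42 over 19 genes, 17 of them negative, but Chat was at 55.0, 6.24, 76.9 and 33.7 CPM in wild-type 64, 111, 504 and 980 and at 40.9, 13.0, 57.4 and 16.7 CPM in Pink1-/- 548, 602, 736 and 983. The wild-type group spans the whole range of the Pink1-/- group. The catecholamine list had a median of -0.99 over 11 genes. Th, the rate-limiting enzyme of catecholamine synthesis, was at 22.7 CPM in wild-type 504 and 12.4 CPM in wild-type 980, but at 1.74 and 1.29 CPM in wild-type 64 and 111 and 1.24 to 3.28 CPM in Pink1-/-. Without wild-type 504 and 980 the list median was -0.02 and Th had a positive difference of 0.69 log2 (adjusted p = 0.813 in edgeR), whereas without wild-type 64 and 111 Th was called lower. Synaptic vesicle genes were negative in 25 of 28 cases, with a median of -0.10 and 0 called.

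Myelin and oligodendrocyte genes were positive in 20 of 22 cases, with a median of 0.08 and 0 called. Gja1, the astrocyte gap junction protein connexin 43, was at 170, 148, 170 and 165 CPM in wild-type 64, 111, 504 and 980 and at 197 to 218 CPM in Pink1-/- without overlap. Its log2 difference of 0.33 (SE 0.0686) had an adjusted p of 0.306 in edgeR. Pdgfrb, a receptor of pericytes, was at 28.9 to 38.5 CPM in wild type and 40.2 to 46.0 CPM in Pink1-/- (0.35 log2, adjusted p = 0.609). The summed level of 3 pericyte markers was lower in wild-type 504 and 980 (54.6 and 60.9 CPM) than in the other 6 libraries (91.7 to 112 CPM). The blood list had a median of 0.90, and of -0.20 without Pink1-/- 983.

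Several genes separated the groups without passing the threshold. Cep295, a centriole protein, was at 39.5, 44.8, 37.3 and 61.4 CPM in wild-type 64, 111, 504 and 980 and at 73.4 to 95.4 CPM in Pink1-/- (0.82 log2, SE 0.151, adjusted p = 0.172 in edgeR). Tfrc, the transferrin receptor that takes up iron, was at 127 to 139 CPM in wild type and 98.1 to 109 CPM in Pink1-/- (-0.37 log2, SE 0.0669, adjusted p = 0.172). Mdc1, a DNA damage checkpoint protein, was at 20.3 to 21.7 CPM in wild type and 14.6 to 16.3 CPM in Pink1-/- (-0.45 log2, SE 0.0798, adjusted p = 0.169). Ryr1, a calcium release channel, was at 9.22 to 10.6 CPM in wild type and at 2.34, 1.27 and 1.39 CPM in Pink1-/- 548, 736 and 983, while Pink1-/- 602 held 8.06 CPM. Its log2 difference of -1.68 (SE 0.476) had an adjusted p of 0.658. DESeq2 called 58 genes, the likelihood ratio test of edgeR 49 and limma-voom with quality weights 24, and each count included all 9 calls given above. The authors' deposited table, made with edgeR, lists 62 genes at a false discovery rate under 0.05, 34 of them higher and 28 lower in Pink1-/-, and all 9 are among them.

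The females were then compared with the males, whose libraries were deposited in a table of their own, so that sex and any difference between the sets cannot be told apart. Of the 9 female calls, Pink1, Akr1b8 and LOC100361025 were called in males as well. Against the same male calls, the overlap was 3 of 17 female calls without wild-type 64 and 111, and 33 of 65 without wild-type 504 and 980. These pairs were formed at the male calls, so those 2 counts only describe the libraries. The overlap was 19 of 58 with DESeq2, 16 of 49 with the likelihood ratio test and 10 of 24 with limma-voom. Akr1b8 fell by 1.05 log2 in males (adjusted p = 0.00437 in edgeR), and the interaction of genotype and sex was -0.26 (SE 0.181, adjusted p = 0.515). LOC100361025 rose by 4.58 log2 in males, from a mean of 0.174 CPM, a very low level, to 4.47 CPM. Its interaction was -2.09 (SE 0.475, adjusted p = 0.148 in edgeR), past the threshold under 3 of 25 alternatives. Srd5a1 (-0.75), Zfp40 (0.44) and Cnksr3 (0.47) had male log2 differences of the same sign that were not called, and their interactions had adjusted p of 0.664, 0.385 and 0.422. LOC100360573 had too few counts in males to be tested there.

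The interaction was called for 12 of 15042 genes (0.0798%). Slc35c2 had a male log2 difference of -0.03 and an interaction of -1.58 (female minus male, SE 0.251, adjusted p = 0.0225 in edgeR). Its mean was 4.12 CPM in wild-type and 3.98 CPM in Pink1-/- males, against 26.2 and 8.53 CPM in the females. Males of both genotypes thus lay below the Pink1-/- females. Golgb1 had a male log2 difference of 0.06 and an interaction of -0.62 (SE 0.107, adjusted p = 0.042). Its mean was 176 CPM in wild-type and 183 CPM in Pink1-/- males, against 321 and 217 CPM in the females. At both genes the wild-type females had the highest mean. These levels were scaled within each sex, and the difference in level between the sexes was not tested. The interaction was past the threshold under 20 of 25 alternatives for Slc35c2 and 14 of 25 for Golgb1, with highest adjusted p of 0.0836 and 0.151. The other named genes past the threshold had been called in males and not in females. Slc7a5, a transporter of large neutral amino acids, was at 54.7 to 66.0 CPM in wild-type and 49.9 to 56.6 CPM in Pink1-/- females, and rose by 0.61 log2 in males. Slc15a2, a peptide transporter, was at 32.5 to 44.2 CPM in wild-type and 42.7 to 46.1 CPM in Pink1-/- females, and fell by 0.43 log2 in males. Polq and Slc15a2 each lie within 3 tested genes of Golgb1 on chromosome 11 in the RefSeq order. The others in that window, Stxbp5l, Hcls1, Iqcb1 and Eaf2, had female log2 differences of -0.14 to 0.15. Of 42 neighbours examined around the named calls, 0 were called in females. An unadjusted p under 0.05 in edgeR was reached by 4 of the 42, against 4.64% of all genes tested.

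**Figure D5:**
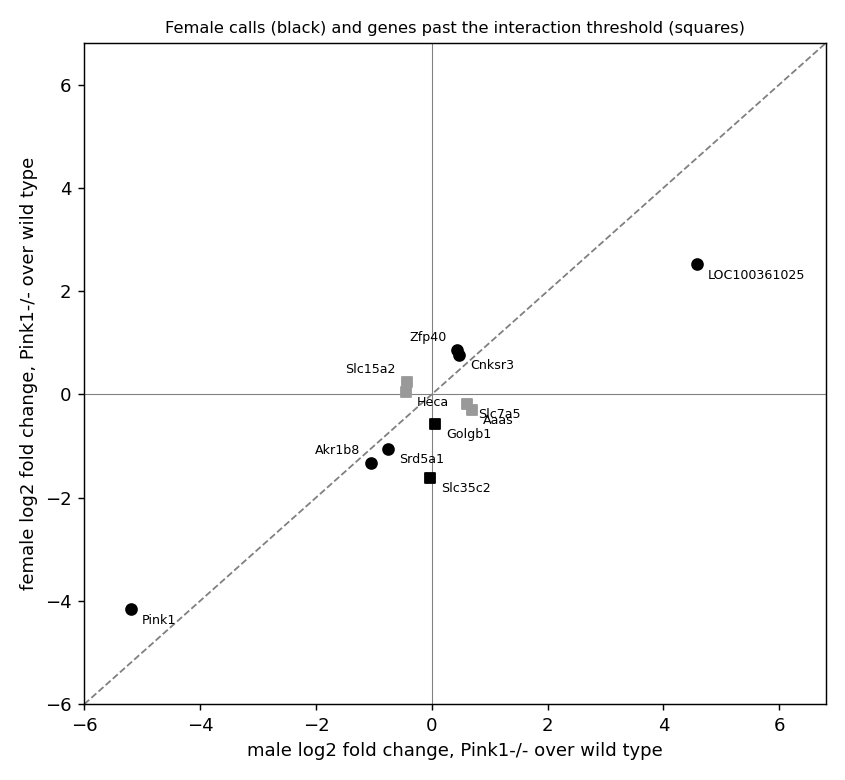
Female log2 fold changes (Pink1-/- over wild type) are plotted against male ones for the female calls tested in both sexes (black) and for other named genes past the interaction threshold (grey), with squares for genes past that threshold and a dashed line of equal change. Slc35c2 and Golgb1 lie on the male 0 line at -1.61 and -0.57, while Akr1b8 and Srd5a1 lie near the line of equal change.

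The precision of the female comparison set what could be seen. The median 95% interval reached 0.28 log2 on either side of the estimate, and at 10797 of 15265 genes (70.7%) the interval lay within a 1.5-fold change in either direction. Among 1628 genes with a mean of at least 100 CPM the share was 95.6%.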

How the data were processed

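The authors deposited 1 table of estimated counts per gene for each sex and a comparison table per sex. The submitters' processing notes name RSEM, with no version, and edgeR 3.9; neither aligner nor build nor annotation is named there (not given in the sources used here). Per the labels' protocols, libraries were made from total RNA of frozen tissue with a TruSeq kit. The deposited estimated counts were whole numbers and were used as they are. Per the file headers, the authors' female comparison table gives log2 fold changes and mean log2 CPM, a likelihood ratio score, and p-values with false discovery rates. It supplied 166 gene symbols for identifiers with placeholder names. No per-sample column was left unused (0).

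Females were tested with the quasi-likelihood test of edgeR 4.0.16 in R 4.3.3 after filterByExpr (minimum count 10, minimum total 15) and TMM scaling, with Benjamini-Hochberg adjustment over all genes tested. Each SE was derived from the F statistic, and 95% intervals use the degrees of freedom of that test. CPM values are TMM-scaled. The interaction of genotype and sex was fitted over all 16 libraries. Alternatives used DESeq2 1.42.0, limma 3.58.1, sva 3.50.0, other scalings and filters, and left-out libraries. The tests were checked on simulated data that lacked the differences among wild-type libraries described above, so that check does not cover them. Library measures had exact 2-sided permutation tests, in which 4 against 4 cannot give a p under 0.0286. Those p-values were not adjusted for the number of measures. The p-values set the difference between groups against the spread between animals.

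The comparison, the 40 gene lists (845 of 862 members matched) and the rule for named genes were chosen with earlier results of these data known. The rule named Pink1, every call, the next 8 genes by p on each side, called members of each list or else the 2 with the smallest p, up to 10 interaction genes, the 5 largest non-overlapping differences on each side, and up to 6 genes called by at least 2 of 3 other tests; a selection is printed, and 1 item is not reported here. Male-called genes, neighbours of the calls, Chat, Star and Mt-co1 were named after their values were seen. Promoters and gene order are from RefSeq, assembly GRCr8, matched by symbol, and 13602 tested genes were placed.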

Additional observations from a re-analysis of the deposited data

Results flagged for a closer look

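In all, 12 genes had a different response to genotype in the sexes by the interaction test of edgeR (adjusted p under 0.05). The log2 difference, female minus male, was -1.58 for Slc35c2, -0.62 for Golgb1, -0.79 for Slc7a5, -0.99 for Aaas, a nuclear pore protein, 0.68 for Slc15a2 and 0.51 for Heca. Loci with placeholder names gave 4.01 (AABR07001512.1), -2.31 (LOC100911515), 3.83 (LOC689899), 0.93 (LOC102552284), -5.89 (LOC257642) and 1.20 (LOC100362027). Counts of such loci can be shared with near-identical copies, and the last of them is named Rpl30 in the authors' deposited female comparison table. It is not the locus called Rpl30 above, and each carries the other's name in that comparison. In males LOC100362027 had a log2 difference of -1.49, and the locus called Rpl30 above had 2.16. Sex and the separate deposition of the tables cannot be told apart, and leaving out single libraries moved the number of such genes between 3 and 13.

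Single libraries stood far from the other 3 of their group in 5 of 70 groups examined, where chance gives about 1 in 20. Pink1-/- 602 had the fewest counts, 13880000 against 21510000 to 22780000, and the highest Golgb1 level of its group, 237 CPM against 210 CPM in the others. Pink1-/- 983 had 46.8 CPM of Heca against 41.5 to 42.4 CPM, and 373 CPM of blood markers against 61.7 to 74.8 CPM. Wild-type 980 had 10.5 CPM of serotonin markers against 0.807 to 2.01 CPM.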

How the results depend on the processing

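No paired analysis was possible because the labels give each animal its own number. The female calls numbered 4 higher and 5 lower. They numbered 30 and 28 with DESeq2, 24 and 25 with the likelihood ratio test, 15 and 9 with limma-voom and quality weights, 8 and 8 with 1 surrogate variable, and 9 and 8 with all 16 libraries in 1 fit. They numbered 7 and 10 without wild-type 64 and 111, and 40 and 25 without wild-type 504 and 980. Leaving out 1 library gave 3 to 7 higher and 4 to 9 lower, the highest counts without wild-type 980. Pink1, Slc35c2, Akr1b8, Zfp40, LOC100361025 and LOC100360573 were called in each of these fits; Srd5a1 missed only in the fit of 16 libraries (adjusted p = 0.0521).

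The 12 interaction genes became 29 at an adjusted p under 0.10, 3 with library totals, 19 without the 10 most abundant loci, 19 with no filter, 21 with a mean of at least 1 CPM, 92 with DESeq2, 95 with the likelihood ratio test, 27 with limma-voom and 100 with 1 surrogate variable. Leaving out 1 library gave 3 to 13, with fewer than 8 without male 17, 18, 20, 22 or 25 or female 64, 602, 736, 980 or 983.

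With library totals the list medians were 0.0058 for mitophagy, 0.0154 for autophagy, 0.0546 for golgins and -0.0471 for the mitochondrial unfolded protein response, and 0 golgins were called. With TMM these medians were -0.0446, -0.0327, 0.0082 and -0.0954, so each was higher with library totals. The median of all genes with library totals is not given here. Without wild-type 64 and 111 the antioxidant list had a median of -0.12 and 1 call, the catecholamine list 1 call, the endothelium and pericyte list 2 calls, and the golgin and steroid receptor lists 0 calls each. Without wild-type 504 and 980 the medians were -0.0171 for catecholamine neurons, 0.14 for neuropeptides and 0.30 for ependyma, and the autophagy list had 1 call (Nrbf2). With 1 library left out, medians ran from -0.20 to 1.14 for blood, 0.00023 to 0.27 for ependyma, -0.016 to 0.0198 for golgins, -0.12 to -0.0473 for the mitochondrial unfolded protein response and -0.57 to 0.12 for neuropeptides, and calls from 0 to 1 in the autophagy, golgin and steroid receptor lists.

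The difference in the share of mitochondrially encoded genes, AY172581 loci not included, ran from -1.14 to -0.84 percentage points with 1 library left out. Its exact permutation p ran from 0.0286 to 0.0571. The AY172581 share ran from -3.02 to 0.35 points and turned positive (0.35) without Pink1-/- 548. Signs also turned for uncalled genes: without wild-type 504 and 980 for Ache (0.0136), Th (0.69) and Tph2 (0.27), and without Pink1-/- 983 for Hba-a2 (-0.22, in a range of -0.22 to 1.16). The cause was not tested.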
